A study of Homo sapiens with 26 samples.

Results

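The antibody A13, which binds the receptor NOTCH3 and was used as an agonist, was compared with DMSO vehicle in MDA-MB-468 cells, an established human breast cancer line of the basal, triple-negative type. The members were the arrays of the agonism experiment labelled with A13 (3 arrays) or DMSO (3 arrays), chosen by treatment label and by no measured value. They were 6 of the 18 arrays of that experiment and 6 of the 26 arrays of the series, and all 19775 genes with a probe set of their own were examined. A13 cells had been held in 5 µM DAPT for 16 h, washed, left in plain medium for 2 h and given A13 at 20 µg/ml. Control IgG cells, whose 3 arrays stand beside the comparison, had the same DAPT, wash and medium, followed by a control antibody at 20 µg/ml. DMSO cells had 0.05% DMSO in place of DAPT, the same wash and medium, and DMSO again, which was also renewed at 22 h. All arrays used here were labelled as harvested at 24 h. A13 and DMSO cells therefore differed in the earlier DAPT, in the antibody and in the late renewal, and these cannot be told apart within the comparison. The labels mention just 1 DMSO plate and leave it unsaid whether replicate arrays are from separate cultures.

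Notch receptors are activated when a ligand such as JAG1 on a neighbouring cell pulls on them, which exposes the receptor to an ADAM protease and then to gamma-secretase. The released intracellular domain joins the DNA-binding protein RBPJ and a MAML co-activator and switches on target genes, among them the HES and HEY repressors and the feedback inhibitor NRARP. DAPT inhibits gamma-secretase, so its removal allows cleavage again. In the mammary gland Notch activity is known for its part in luminal progenitor fate, and MYC is a well-known direct target in several cancers.

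The sequences just upstream of the start sites of 6 of the 7 passing canonical Notch targets are shown, with that of OLFM4, the largest rise. Whether OLFM4 is a Notch target was not tested. Each is the 250 bases before the gene's start in RefSeq (GRCh38.p14), 5′ to 3′ on the gene's strand, and capitals mark TGGGAA or its reverse complement TTCCCA, the core of the site that RBPJ binds.
HES1 (chr3:194135898-194136147, plus strand): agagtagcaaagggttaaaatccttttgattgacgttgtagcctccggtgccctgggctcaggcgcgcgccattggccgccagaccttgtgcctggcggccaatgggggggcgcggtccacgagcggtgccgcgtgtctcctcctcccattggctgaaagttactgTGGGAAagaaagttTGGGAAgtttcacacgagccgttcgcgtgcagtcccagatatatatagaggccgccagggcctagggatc
HES4 (chr1:1000098-1000347, minus strand): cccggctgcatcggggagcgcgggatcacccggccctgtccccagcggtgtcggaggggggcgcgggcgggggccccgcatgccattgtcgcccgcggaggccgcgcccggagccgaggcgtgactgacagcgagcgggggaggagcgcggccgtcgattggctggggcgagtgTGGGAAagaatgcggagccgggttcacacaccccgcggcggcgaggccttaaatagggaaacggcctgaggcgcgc
HEY2 (chr6:125749382-125749631, plus strand): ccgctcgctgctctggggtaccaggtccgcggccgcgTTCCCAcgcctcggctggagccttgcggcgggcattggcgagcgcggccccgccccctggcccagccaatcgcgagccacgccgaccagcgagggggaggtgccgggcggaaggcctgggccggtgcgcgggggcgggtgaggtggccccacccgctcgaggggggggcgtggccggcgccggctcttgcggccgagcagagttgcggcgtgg
OLFM4 (chr13:53028563-53028812, plus strand): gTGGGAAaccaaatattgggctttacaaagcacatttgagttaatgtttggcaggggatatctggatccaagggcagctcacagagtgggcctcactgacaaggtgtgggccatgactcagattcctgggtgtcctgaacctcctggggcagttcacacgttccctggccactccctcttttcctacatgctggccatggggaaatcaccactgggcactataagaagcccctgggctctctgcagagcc
NRARP (chr9:137302272-137302521, minus strand): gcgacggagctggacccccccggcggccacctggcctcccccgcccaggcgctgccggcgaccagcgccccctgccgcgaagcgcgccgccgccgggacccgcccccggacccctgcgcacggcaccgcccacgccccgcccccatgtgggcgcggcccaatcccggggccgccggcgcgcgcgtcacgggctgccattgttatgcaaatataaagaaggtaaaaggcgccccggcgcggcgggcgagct
NOTCH3 (chr19:15200996-15201245, minus strand): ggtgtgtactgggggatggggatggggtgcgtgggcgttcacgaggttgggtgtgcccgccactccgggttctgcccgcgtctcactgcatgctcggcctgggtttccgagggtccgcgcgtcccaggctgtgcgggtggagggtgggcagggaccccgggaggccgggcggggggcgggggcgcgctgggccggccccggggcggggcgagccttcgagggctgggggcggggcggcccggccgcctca
BHLHE40 (chr3:4979187-4979436, plus strand): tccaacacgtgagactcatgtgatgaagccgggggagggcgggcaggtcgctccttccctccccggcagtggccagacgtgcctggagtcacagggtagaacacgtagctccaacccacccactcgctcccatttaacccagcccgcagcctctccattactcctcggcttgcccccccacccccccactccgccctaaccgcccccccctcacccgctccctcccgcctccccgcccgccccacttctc
The HES1 window held 2 matches, starting 84 and 70 bases before the gene's start, and HES4 held 1 at 76 bases. HEY2 held 1 at 213 bases, read on the opposite strand, and OLFM4 held 1 at 249 bases, while the windows of NRARP, NOTCH3 and BHLHE40 held 0. At least 1 match was present in 7321 of 35116 promoters of the table (20.8%), and 2 or more in 1017 (2.9%). The promoter of HEY1, the other passing target, is not shown. A match is a stretch of letters and not a measured binding site.

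The median log2 intensity of an array was 6.84 to 6.88. Between arrays of a group, the SD of the log2 difference over all genes was 0.138 to 0.146 for A13, 0.141 to 0.172 for control IgG and 0.138 to 0.194 for DMSO, against 0.258 to 0.344 between A13 and DMSO arrays. The 2 higher DMSO values both involved DMSO array 2. EGFR, KRT5, KRT8, KRT18, CDH1 and EPCAM, used here as markers of a basal-like epithelial line, lay above the upper quartile of every one of the 6 arrays. KRT14, a further such marker, did so in 3 arrays, and PGR lay below the lower quartile of all 6. Among the 11 markers of other cell types, PTPRC, CDH5 and ALB lay below the lower quartile of all 6 arrays and PDGFRB of 5, while CD3E, COL1A1, COL1A2, COL3A1, PECAM1 and VWF lay between the quartiles. The monocyte marker CD14 lay above the upper quartile in 4 arrays. ESR1 and ERBB2, which this line is known to lack or hold at a low level, lay between the quartiles, and intensities carry no detection calls. The mean log2 intensity of these 11 markers was 7.24 to 7.32 with A13 and 7.25 to 7.34 with DMSO, and 1 of the 11, CD14, passed the test (-0.34 ± 0.080, adjusted p = 0.00247). Its part in the results was not tested. KRT17 and KRT6B were not analysed here.

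With A13, the cells differed from DMSO cells most in OLFM4, a secreted glycoprotein, which was higher, and, by the probe set used, in AQP3, a water and glycerol channel, which was lower. Most known Notch targets, MYC, most amino acid stress genes and many immediate early genes were higher. About as many genes fell as rose, among them 10 of 19 luminal secretory products and several interferon and antigen-processing genes. In all, 6114 of 19775 genes passed at an adjusted p under 0.05 (30.9%), 3105 higher (15.7%) and 3009 lower (15.2%), while 7688 had an unadjusted p under 0.05. Few changes were large, since 86 genes rose at least 2-fold (0.435%) and 81 fell at least 2-fold (0.41%), and the median change over all genes was 0.026 on the log2 scale. The A13 and DMSO arrays did not overlap in 8167 genes (41.3%), 4390 of them higher (22.2%) and 3777 lower (19.1%) with A13. By the same test, 2651 of the 9887 genes above the median level were higher (26.8%) and 2507 lower (25.4%), against 4.59% and 5.08% of the other 9888, and 465 of the 599 list entries described below lay above that level. The count of passing genes lay between 4950 and 6594 when each array was left out in turn.

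**Figure D1:**
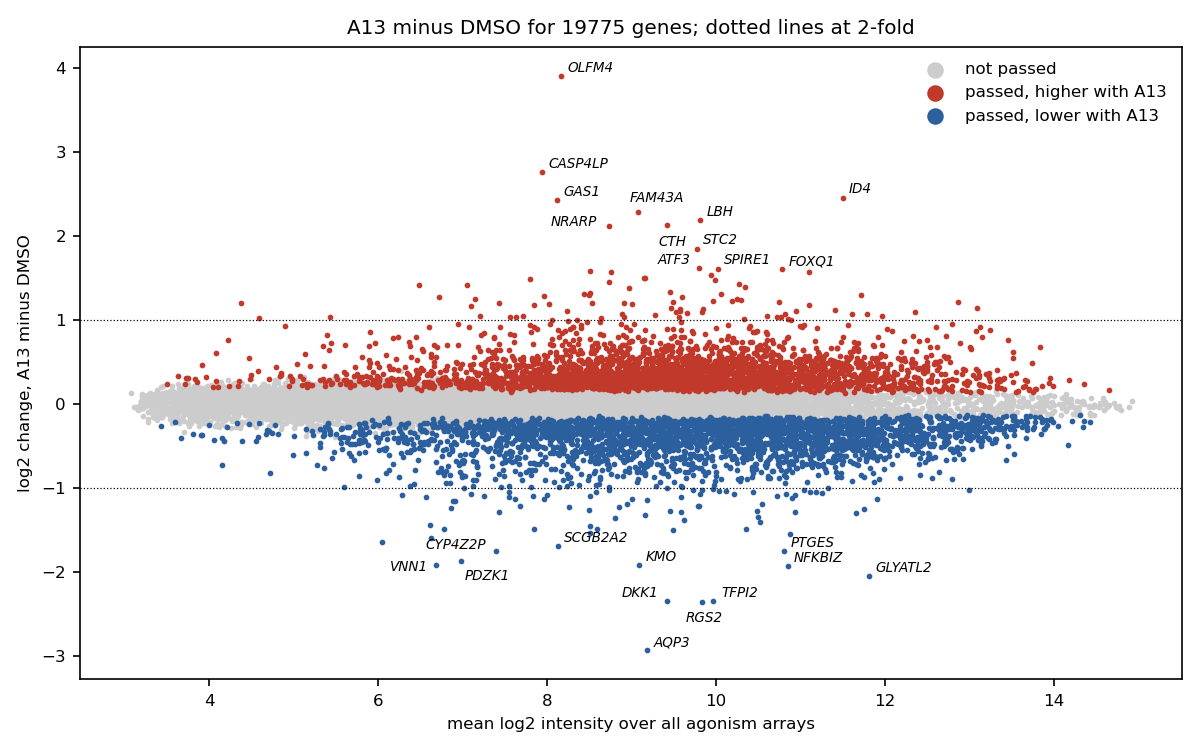
Log2 change, A13 minus DMSO (vertical axis), against mean log2 intensity over all agonism arrays (horizontal axis), 1 point a gene. Red points passed higher with A13 and blue points passed lower, grey points did not pass, dotted lines mark 2-fold, and the named points are the 12 largest rises, led by OLFM4 at 3.91, and the 12 largest falls, led for the probe sets used by AQP3 at -2.93.

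OLFM4 had log2 intensities of 11.32, 11.43 and 11.22 with A13, 7.16, 7.42 and 7.44 with control IgG and 7.56, 7.43 and 7.25 with DMSO. The A13 arrays stood far above all others, and the control IgG and DMSO arrays overlapped. The change from DMSO was 3.91 ± 0.12, adjusted p = 4.24e-13, which is 15.0-fold, and that from control IgG was 3.98 ± 0.12. OLFM4 averaged 10.13 ± 0.098 with JAG1-coated beads and 5.28 ± 0.22 under continued DAPT (SD, n = 3 each). CASP4LP, a pseudogene related to the inflammatory caspase CASP4, rose by 2.76 ± 0.17. Its second probe set, which was dim, changed by 0.030 and did not pass, so the rise rests on 1 probe set (mean over both 1.40).

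The other large rises joined developmental regulators with stress genes. ID4, an inhibitor of basic helix-loop-helix factors, had 12.87, 12.84 and 12.71 with A13, against 10.28, 10.47 and 10.29 with DMSO. Its A13 arrays lay above all DMSO arrays, and it rose by 2.46 ± 0.12. GAS1, a membrane-anchored co-receptor of Hedgehog signalling, rose by 2.43 ± 0.10, but that probe set is of a class (names ending in _x_at or _s_at) that may cross-react with similar transcripts, and the gene's probe set outside this class gave 0.034 and did not pass (mean over all its probe sets 1.16). A further GAS1 probe set of this class rose by 1.02. It and the probe set that gave 0.034 were dimmer (mean log2 intensity 5.70 and 5.97) than that used (8.12). The forkhead factor FOXQ1 rose by 1.61 ± 0.090. FAM43A rose by 2.28 ± 0.12 and the transcription cofactor LBH by 2.20 ± 0.16. CTH, which makes cysteine from cystathionine, rose by 2.13 ± 0.12, the secreted stanniocalcin STC2 by 1.85 ± 0.11 and the stress factor ATF3 by 1.62 ± 0.12. As means over all probe sets of the gene, FAM43A changed by 1.38 and ATF3 by 0.93. SPIRE1, an actin nucleator, rose by 1.61 ± 0.083. With ATF3 and NRARP, the 12 largest rises spanned log2 changes of 1.61 to 3.91.

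Among the falls, AQP3 had log2 intensities of 7.89, 7.59 and 8.05 with A13, 8.72, 8.97 and 8.99 with control IgG and 10.82, 10.69 and 10.80 with DMSO. The 3 groups did not overlap, and AQP3 fell by 2.93 ± 0.10 with A13 relative to DMSO. This size rests on 1 of 3 probe sets of similar brightness, since the other 2 each changed by -0.78 and the mean over all 3 was -1.50, a smaller fall than the same mean for RGS2 (-2.35), DKK1 (-2.35) and TFPI2 (-2.22). The Wnt inhibitor DKK1 had 7.64, 7.95 and 7.76 with A13, against 10.25, 9.91 and 10.23 with DMSO, and changed by -2.35 ± 0.10, adjusted p = 2.01e-11. RGS2, which limits G protein signalling, changed by -2.35 ± 0.097, and the protease inhibitor TFPI2 by -2.34 ± 0.085. NFKBIZ, an IkB family protein of the nucleus, changed by -1.92 ± 0.13. Enzymes made up much of the rest. GLYATL2, a glycine N-acyltransferase, changed by -2.04 ± 0.073, KMO, an enzyme of tryptophan breakdown, by -1.91 ± 0.11, the pantetheinase VNN1 by -1.91 ± 0.16 and the prostaglandin E synthase PTGES by -1.75 ± 0.055. The other VNN1 probe set, of similar brightness, changed by -0.70 and passed. The scaffold protein PDZK1 changed by -1.87 ± 0.11, CYP4Z2P, a pseudogene of a fatty acid hydroxylase, by -1.75 ± 0.099 and the mammaglobin gene SCGB2A2 by -1.69 ± 0.15.

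Most canonical Notch targets were higher with A13 than with DMSO. Of 10 measured, 7 rose and 0 fell, and the median log2 change was 0.56, against 0.026 over all genes. With the less specific _x_at and _s_at probe sets set aside, 6 were measured and 2 rose. NRARP, which feeds back to inhibit Notch, changed most. Its log2 intensities were 10.27, 10.23 and 10.18 with A13, 8.35, 8.35 and 8.28 with control IgG and 8.11, 8.17 and 8.05 with DMSO. No A13 array overlapped with the other groups, and NRARP rose by 2.12 ± 0.068, adjusted p = 4.50e-13. HES1, the best-known Notch-driven repressor, had 11.09, 10.99 and 11.06 with A13, 10.66, 10.77 and 10.73 with control IgG and 10.38, 10.54 and 10.38 with DMSO. The 3 groups stood in the order A13, control IgG, DMSO without overlap, and HES1 rose by 0.62 ± 0.064, adjusted p = 8.94e-07 relative to DMSO. That value comes from 1 of 2 bright probe sets, which rose by 0.62 and 0.56, while a further, dim probe set changed by -0.11 and did not pass (mean over all 3 probe sets 0.36).

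Of the other repressors of the list, 4 rose. HES4 rose by 0.67 ± 0.079 and HEY1, a repressor of the HES-related family, by 0.58 ± 0.063. HEY2 rose by 0.53 ± 0.085, and the circadian and hypoxia-linked repressor BHLHE40 by 0.52 ± 0.056. BHLHE40 changed by 0.12 ± 0.056, adjusted p = 0.173 from control IgG, and control IgG by 0.40 ± 0.056, adjusted p = 5.16e-05 from DMSO. It averaged 11.09 under continued DAPT and 10.97 with DMSO. Whether BHLHE40 is a Notch target in these cells was not tested. Measured by probe sets not ending in _x_at or _s_at, HEY2 changed by 0.18 and did not pass. HEYL changed by 0.12 ± 0.075, adjusted p = 0.254, HES5 by 0.13 ± 0.082, adjusted p = 0.287 and DTX1, an E3 ligase of the pathway, by 0.061 ± 0.12, adjusted p = 0.758, and their A13 and DMSO arrays overlapped.

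The receptor A13 binds was itself higher. NOTCH3 had log2 intensities of 12.217, 12.661 and 12.530 with A13, 11.853, 12.001 and 11.463 with control IgG and 11.127, 11.134 and 11.247 with DMSO. All A13 arrays lay above all DMSO arrays, and NOTCH3 rose by 1.30 ± 0.14, adjusted p = 1.61e-06. NOTCH3 is counted both among the canonical targets and among the 9 receptors and ligands, of which 4 rose and 0 fell with a median of 0.18. JAG1, a ligand, had 11.28, 11.21 and 11.14 with A13, 9.98, 10.27 and 10.12 with control IgG and 9.92, 9.71 and 9.82 with DMSO. It rose by 1.40 ± 0.073, adjusted p = 2.38e-10, with no overlap between A13 arrays and the other groups. NOTCH1 rose by 0.71 ± 0.091, or 0.45 as a mean over its probe sets, and NOTCH2 by 0.39 ± 0.070. From control IgG, NOTCH2 changed by -0.0055 ± 0.070, adjusted p = 0.978. Control IgG itself differed from DMSO in NOTCH2 by 0.40 ± 0.070, adjusted p = 2.9e-04. JAG2 changed by 0.18 ± 0.067, adjusted p = 0.0529, NOTCH4 by 0.18 ± 0.098, adjusted p = 0.183, DLL4 by 0.13 ± 0.083, adjusted p = 0.26, DLL3 by 0.091 ± 0.071, adjusted p = 0.387 and DLL1 by 0.064 ± 0.091, adjusted p = 0.667, and none of these passed. JAG2 passed under some alternatives, with adjusted p between 0.0198 and 0.0487.

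**Figure D2:**
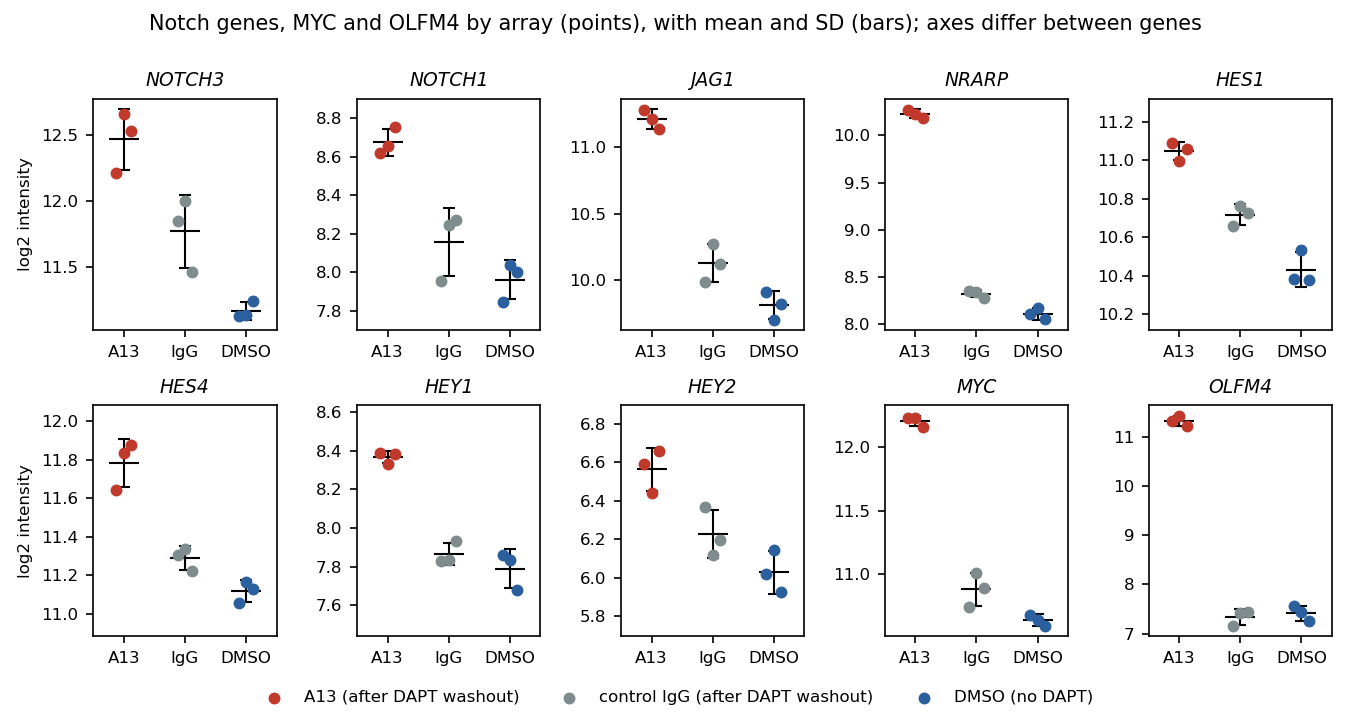
Log2 intensity of 10 genes in each array (points) of A13, control IgG and DMSO cells, with the mean and SD of 3 arrays (bars). Axes differ between genes. OLFM4, NRARP, JAG1 and MYC were highest with A13 in every array, and HES1 stood in the order A13, IgG, DMSO.

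Of 28 measured genes that process Notch or form the RBPJ complex, 7 rose (25%) and 4 fell (14.3%), and the median was 0.11. Of the 28, 21 lay above the median level, and the shares over genes above it were 26.8% higher and 25.4% lower. With A13 against control IgG, 2 of the 28 were higher and 5 lower. Over all genes, that comparison had 5.71% higher and 8.96% lower. The co-activator MAML2 rose by 0.79 ± 0.078, the acetyltransferase EP300 by 0.61 ± 0.097 and ADAM10, the protease that makes the first cut, by 0.45 ± 0.061. PSENEN, a subunit of gamma-secretase, changed by -0.65 ± 0.075, adjusted p = 3.40e-06.

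MYC and the ribosome biogenesis genes were mostly higher. MYC, which drives growth and ribosome production, had log2 intensities of 12.23, 12.23 and 12.16 with A13, 10.74, 11.01 and 10.89 with control IgG and 10.68, 10.64 and 10.59 with DMSO. No A13 array overlapped with another group, and MYC rose by 1.58 ± 0.072, adjusted p = 4.41e-11, which is 2.98-fold. Of 23 measured genes of this list, MYC included, 16 rose and 0 fell, with a median of 0.32. The nucleolar proteins NCL, NOLC1 and the helicase DDX21 rose by 0.68 ± 0.077, 0.55 ± 0.060 and 0.64 ± 0.055. In polyamine and nucleotide synthesis, 9 of 18 genes rose and 3 fell, with a median of 0.16. CAD, which starts pyrimidine synthesis, rose by 0.65 ± 0.094, and the purine enzymes IMPDH2 and PAICS by 0.43 ± 0.066 and 0.37 ± 0.070. PRPS1, which makes the ribose donor for nucleotides, changed by -0.30 ± 0.057. For NCL and PAICS, probe sets not ending in _x_at or _s_at gave 0.071 and 0.13, and neither passed. A further PAICS probe set, ending in _s_at and about as bright as that used, changed by 0.046 and did not pass. As means over all probe sets, NCL changed by 0.37, PAICS by 0.18 and CAD by 0.26.

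Genes of the cell cycle were counted by phase. Of 31 genes of G1/S and DNA replication 16 rose and 6 fell, with a median of 0.20, and of 30 genes of G2/M and mitosis 8 rose and 7 fell, with a median of -0.073. All these genes lay above the median level, and the G2/M shares, 26.7% higher and 23.3% lower, were close to the 26.8% and 25.4% over all genes above that level, while those of G1/S were 51.6% and 19.4%. The transcription factor E2F2 rose by 0.86 ± 0.072, adjusted p = 9.23e-08. The replication gene GINS1 changed by -0.58 ± 0.076, cyclin E2 (CCNE2) by -0.63 ± 0.091 and the polymerase subunit POLE2 by -0.54 ± 0.081. Among mitotic genes, the spindle factor TPX2 rose by 0.34 ± 0.061, and BIRC5, CCNB1 and CDK1 changed by -0.36 ± 0.054, -0.27 ± 0.050 and -0.38 ± 0.072. Of 14 G1 cyclins and inhibitors 8 rose and 0 fell, with a median of 0.23. Cyclin D1 (CCND1) had 10.18, 10.27 and 10.12 with A13, against 9.04, 9.26 and 8.99 with DMSO, and it rose by 1.09 ± 0.088, adjusted p = 5.07e-08. Its kinase partner CDK6 rose by 0.85 ± 0.10, and the inhibitors CDKN2B and CDKN1C by 0.77 ± 0.11 and 0.42 ± 0.085. Other settings moved CCNB1 to -0.17 (repeated quantile normalization), CDK1 to -0.18 (probe sets not ending in _x_at or _s_at) and CDKN1C to 0.28 (mean over probe sets).

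Several luminal genes fell with A13 relative to DMSO, and basal genes moved both ways. Of 19 luminal secretory products 0 rose and 10 fell, with a median of -0.23. AGR2, a protein of the endoplasmic reticulum in secretory cells, had log2 intensities of 9.71, 9.88 and 9.99 with A13, 11.41, 11.23 and 11.34 with control IgG and 11.45, 11.29 and 11.48 with DMSO. No A13 array overlapped with another group, and AGR2 fell by 1.55 ± 0.074 relative to DMSO. The mammary products MUCL1 and SCGB2A2 changed by -1.09 ± 0.079 and -1.69 ± 0.15, and the iron-binding lipocalin LCN2 by -0.81 ± 0.072. Of 23 luminal transcription factors, keratins and related genes, 4 rose (17.4%) and 7 fell (30.4%), with a median of -0.006. The shares over genes above the median level were 26.8% higher and 25.4% lower, and 19 of the 23 lay above that level. FOXA1, a pioneer factor of luminal cells, had 9.09, 8.91 and 8.92 with A13, 9.71, 9.98 and 9.94 with control IgG and 9.46, 9.54 and 9.39 with DMSO. The A13 arrays were lowest and the control IgG arrays highest, and FOXA1 changed by -0.49 ± 0.081, adjusted p = 1.34e-04 relative to DMSO. SPDEF, a factor of secretory cells, changed by -0.62 ± 0.087 and the mucin MUC1 by -0.57 ± 0.075. The sizes depended on the probe set, since the other FOXA1 probe set changed by -1.97, and means over probe sets were -1.23 for FOXA1, -0.41 for SPDEF and -0.29 for MUC1. The other MUC1 probe sets changed by -0.16 and -0.13, and neither passed. Other SPDEF probe sets changed by -0.53 and -0.73 and passed, while those at -0.13 and -0.024 did not. The receptor tyrosine kinase KIT, a marker of luminal progenitors, had 9.22, 9.03 and 9.27 with A13, against 8.01, 8.22 and 7.98 with DMSO. Its A13 arrays did not overlap with the DMSO arrays, and KIT rose by 1.11 ± 0.090, adjusted p = 5.75e-08.

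**Figure D3:**
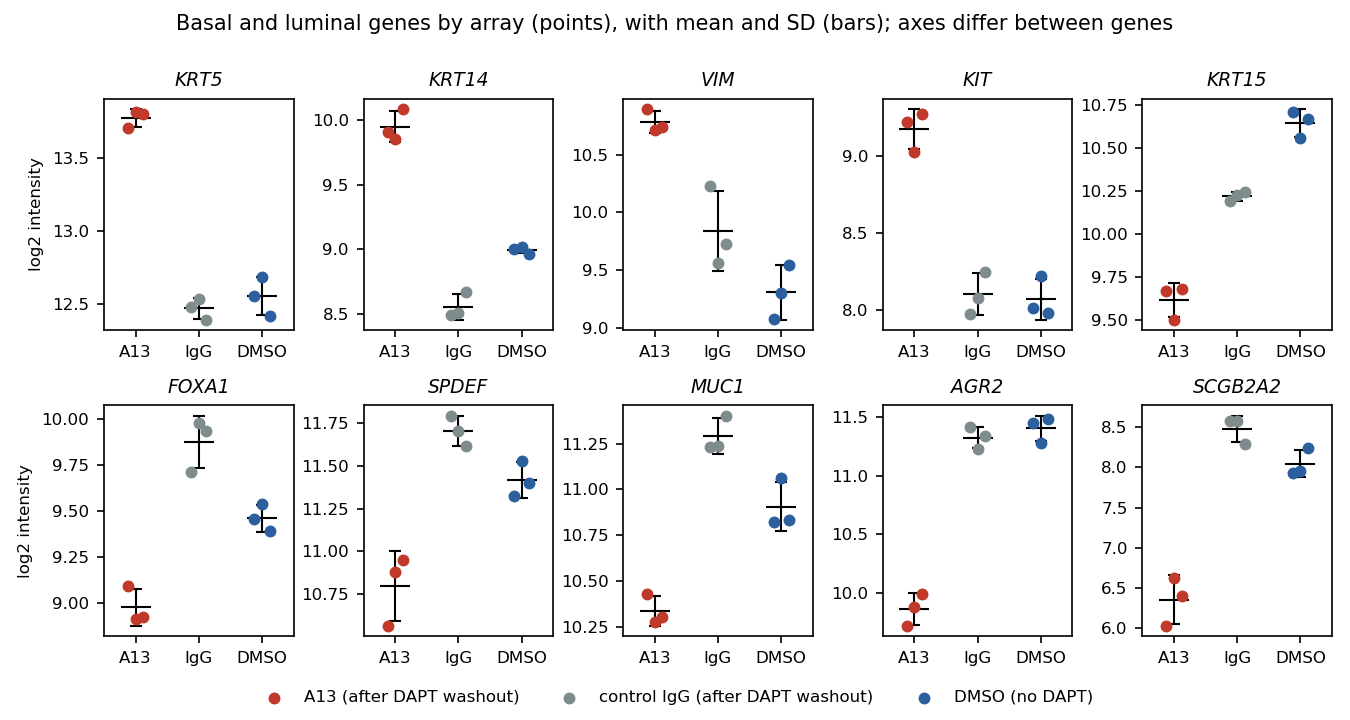
Log2 intensity of 10 basal and luminal genes in each array (points) of A13, control IgG and DMSO cells, with the mean and SD of 3 arrays (bars). Axes differ between genes. KRT5, VIM and KIT were higher with A13 than with DMSO in every array, AGR2 was lower, and FOXA1, SPDEF, MUC1 and SCGB2A2 were lowest with A13 and highest with control IgG.

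Of 14 basal and hemidesmosome genes 4 rose (28.6%) and 3 fell (21.4%), with a median of 0.078 and a lowest change of -1.1. These shares were close to the 26.8% and 25.4% over genes above the median level. Keratin 5 (KRT5) had log2 intensities of 13.70, 13.81 and 13.80 with A13, 12.48, 12.53 and 12.39 with control IgG and 12.56, 12.68 and 12.42 with DMSO. The A13 arrays lay above the arrays of both other groups, which overlapped with each other, and KRT5 rose by 1.22 ± 0.077, adjusted p = 2.59e-09. KRT14 had 9.91, 9.86 and 10.09 with A13, 8.49, 8.50 and 8.67 with control IgG and 9.01, 9.02 and 8.96 with DMSO. It rose by 0.95 ± 0.069, adjusted p = 1.28e-08, and the control IgG arrays lay below the DMSO arrays. KRT15 changed by -1.03 ± 0.067, and EGFR, which this line expresses strongly, rose by 0.69 ± 0.054. Among 16 EMT and adhesion genes 5 rose and 0 fell, with a median of 0.11, and 7 rose and 1 fell after repeated quantile normalization. Vimentin (VIM), an intermediate filament of mesenchymal cells, had 10.89, 10.72 and 10.74 with A13, 10.23, 9.56 and 9.73 with control IgG and 9.07, 9.30 and 9.54 with DMSO. The DMSO arrays differed among themselves, all lay below the A13 arrays, and VIM rose by 1.48 ± 0.19, adjusted p = 1.22e-05. The tight junction genes CLDN1 and TJP1 rose by 0.88 ± 0.090 and 0.64 ± 0.075, and the transcription factor TWIST2 by 0.50 ± 0.066. As means over probe sets, VIM changed by 0.66, EGFR by 0.43 and TWIST2 by 0.29.

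Many stress and growth factor response genes rose. Of 28 ATF4 amino acid stress genes 25 rose and 0 fell, with a median of 0.81. The list holds CTH, STC2 and ATF3, described above. TRIB3, a pseudokinase induced by ATF4, had 13.30, 13.38 and 13.37 with A13, 13.20, 13.31 and 13.12 with control IgG and 12.14, 12.32 and 12.14 with DMSO. The A13 and control IgG arrays both lay above the DMSO arrays, and TRIB3 rose by 1.15 ± 0.068, adjusted p = 1.23e-09. Of 20 endoplasmic reticulum folding genes 5 rose and 5 fell (25% each), with a median of 0.037. All 20 lay above the median level, and these shares were close to the 26.8% and 25.4% over genes above it. The stress sensor ERN1 rose by 0.87 ± 0.096 and the chaperone HYOU1 by 0.48 ± 0.077, while the co-chaperone DNAJB9 changed by -0.60 ± 0.071 and MANF by -0.42 ± 0.058. As a mean over probe sets ERN1 changed by 0.48.

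Of 22 AP-1 and immediate early genes 13 rose and 0 fell, with a median of 0.42. IER5 and IER3, which respond early to growth factors and stress, rose by 0.92 ± 0.056 and 0.88 ± 0.055. JUND, a subunit of AP-1, had 12.75, 12.85 and 12.82 with A13, 12.76, 12.94 and 12.76 with control IgG and 11.90, 12.10 and 11.97 with DMSO, and it rose by 0.82 ± 0.072, adjusted p = 1.63e-07. Of 18 MAP kinase feedback genes 9 rose and 2 fell, with a median of 0.32. SPRY2, which restrains receptor tyrosine kinases, rose by 1.19 ± 0.099, and the ETS factors ETV4 and ETV5, induced by ERK activity, by 0.80 ± 0.090 and 0.83 ± 0.076. As a mean over probe sets ETV5 changed by 0.55. DUSP10, a phosphatase of JNK and p38, changed by -0.79 ± 0.077. Of 19 YAP targets and caveolar genes 12 rose and 3 fell, with a median of 0.42. The matricellular YAP targets CCN1 and CCN2 rose by 1.08 ± 0.077 and 1.27 ± 0.14, and AMOTL2 and AJUBA, which take part in Hippo signalling, by 1.12 ± 0.084 and 1.23 ± 0.11. Of 18 cholesterol and fatty acid genes 12 rose and 3 fell, with a median of 0.29. HMGCS1 and SQLE, which act in cholesterol synthesis, rose by 0.69 ± 0.078 and 0.46 ± 0.057, and DHCR7, at its last step, by 0.54 ± 0.070. SC5D, of the same route, changed by -0.47 ± 0.062, or by -0.12 without passing for probe sets not ending in _x_at or _s_at, with a mean over all of -0.30.

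Several interferon and antigen-processing genes fell while fewer rose, and inflammatory genes moved both ways. Of 32 interferon-stimulated genes 5 rose (15.6%) and 11 fell (34.4%), with a median of -0.093 and a highest change of 0.44. The shares were 15.7% higher and 15.2% lower over all genes, and 26.8% and 25.4% over genes above the median level. The antiviral genes OAS1, ISG15, IFI44 and IFIT3 changed by -0.90 ± 0.059, -0.79 ± 0.067, -1.10 ± 0.12 and -0.77 ± 0.086, and IFI44 did not pass with probe sets not ending in _x_at or _s_at (-0.22). Its mean over all probe sets was -0.66. Of 14 MHC class I genes 2 rose (14.3%) and 5 fell (35.7%), with a median of -0.036 and a highest change of 0.27, and 12 of the 14 lay above the median level. PSMB9, a subunit of the immunoproteasome, had 10.37, 10.27 and 10.45 with A13, 11.02, 10.93 and 11.06 with control IgG and 11.19, 11.17 and 11.26 with DMSO. The A13 arrays lay below the other arrays, and PSMB9 changed by -0.84 ± 0.066, adjusted p = 3.26e-08. Its partners PSMB8 and PSMB10 changed by -0.55 ± 0.060 and -0.85 ± 0.068, and ERAP2, which trims peptides, by -0.57 ± 0.13, or -0.30 as a mean over its probe sets. Among 30 NF-kB and cytokine genes 9 rose and 3 fell, with a median of 0.094. RELB, a subunit of NF-kB, and the inhibitor TNIP1 rose by 0.72 ± 0.090 and 0.51 ± 0.062, and the chemokine CXCL2 by 0.69 ± 0.094. For TNIP1 and CXCL2, probe sets not ending in _x_at or _s_at gave -0.017 and -0.098, and means over all probe sets 0.25 and 0.20. Of 16 acute phase and serpin genes 3 rose and 5 fell, with a median of -0.041. The fibrinogen chain FGG changed by -1.48 ± 0.074, the copper carrier CP by -1.21 ± 0.094 and SERPINB1 by -0.50 ± 0.051, and the protease inhibitor SERPINA3 rose by 0.91 ± 0.073.

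Single regulators of other signalling pathways rose or fell. Of 16 Wnt regulators 6 rose and 3 fell, with a median of 0.022. The stem cell factor SOX9 rose by 0.95 ± 0.083, the receptor FZD7 by 0.74 ± 0.075 and the feedback gene AXIN2 by 0.41 ± 0.064, beside the fall of DKK1. Of 17 ID, BMP and TGF-beta genes 5 rose and 5 fell, with a median of 0.067. ID1 and BMP2 changed by -0.79 ± 0.076 and -0.91 ± 0.12, opposite to ID4, and TGFB2 rose by 0.48 ± 0.090, or changed by 0.16 without passing as a mean over its probe sets. Of 12 insulin-like growth factor genes 5 rose and 1 fell, with a median of 0.16. The adaptor IRS2 rose by 1.43 ± 0.093, and the receptors INSR and IGF2R by 0.50 ± 0.070 and 0.64 ± 0.096 (IGF2R 0.34 for probe sets not ending in _x_at or _s_at), while the binding protein IGFBP5 changed by -0.70 ± 0.16, which its other 5 probe sets, at -0.11 to 0.11, did not share. Of 14 neuropilins, semaphorins and plexins 3 rose and 1 fell, with a median of 0.099, which is 21.4% higher and 7.14% lower, against 15.7% and 15.2% over all genes. NRP1, a co-receptor for semaphorins and VEGF, had 9.47, 9.37 and 9.57 with A13, against 8.13, 8.14 and 8.16 with DMSO, and it rose by 1.33 ± 0.090, adjusted p = 5.98e-09 without overlap, or by 0.48 as a mean over its probe sets. The plexins PLXND1, PLXNA2 and PLXNA3 changed by 0.52 ± 0.073, 0.48 ± 0.076 and -0.24 ± 0.061, and PLXNA3 did not pass as a mean over its probe sets (-0.14).

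**Figure D4:**
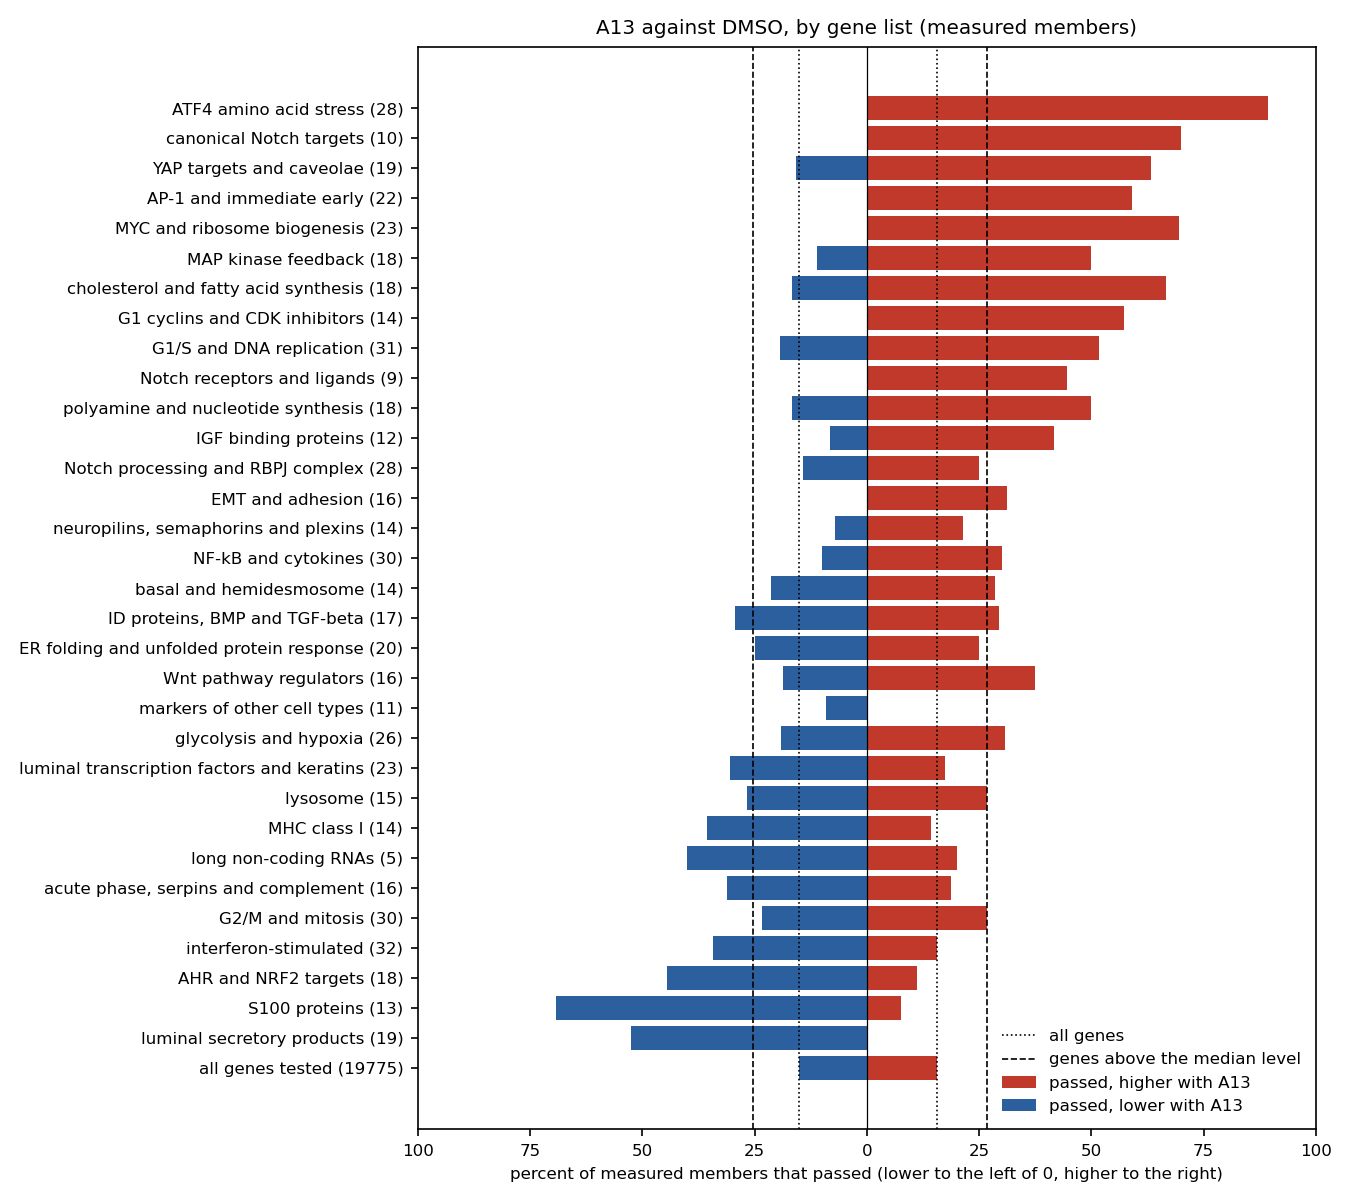
Percent of the measured members of each gene list (number in brackets) that passed, lower to the left of 0 and higher to the right, A13 against DMSO. Dotted lines mark the shares over all genes, 15.7% higher and 15.2% lower, and dashed lines those over genes above the median level, 26.8% and 25.4%. The G2/M, lysosome, endoplasmic reticulum folding, basal and ID lists lay close to the dashed lines on both sides. The ATF4 list had the largest share of rises and the luminal secretory and S100 lists stood out for falls.

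Control IgG cells were compared with the same DMSO cells and with A13 cells. The first comparison holds more than the washout, since control IgG cells also had a control antibody and DMSO cells had renewed DMSO. These differences cannot be told apart within it. For every gene, the change of A13 from DMSO is the sum of its change from control IgG and the change of control IgG from DMSO, so the values below are not independent, and the comparisons share arrays. Control IgG differed from DMSO in 6051 of 19775 genes (30.6%), 3537 higher (17.9%) and 2514 lower (12.7%), and A13 differed from control IgG in 2901 (14.7%), 1129 higher (5.71%) and 1772 lower (8.96%). The genes named in this account were picked after their values were seen.

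Some changes came nearly whole with A13 over control IgG. OLFM4 changed by 3.98 ± 0.12, adjusted p = 2.79e-13 from control IgG, while control IgG differed from DMSO by -0.072 ± 0.12, adjusted p = 0.711. KRT5 changed by 1.30 ± 0.077, adjusted p = 1.75e-09 from control IgG, beside -0.084 ± 0.077, adjusted p = 0.459 for control IgG against DMSO. FOXQ1 (1.47 ± 0.090, adjusted p = 2.59e-09 and 0.14 ± 0.090, adjusted p = 0.29), PTGES (-1.71 ± 0.055, adjusted p = 4.40e-13 and -0.044 ± 0.055, adjusted p = 0.597), PDZK1 (-1.77 ± 0.11, adjusted p = 4.04e-09 and -0.096 ± 0.11, adjusted p = 0.572) and GLYATL2 (-1.91 ± 0.073, adjusted p = 5.45e-12 and -0.13 ± 0.073, adjusted p = 0.186) had the same form, in the order A13 against control IgG and control IgG against DMSO. For these genes the difference of control IgG from DMSO missed the threshold, which does not show that it was 0. NRARP rose mainly in the antibody step (1.90 ± 0.068, adjusted p = 2.18e-12), with a smaller rise that passed in the control IgG step (0.22 ± 0.068, adjusted p = 0.0216). MYC likewise rose by 1.33 ± 0.072, adjusted p = 6.12e-10 over control IgG, and by 0.24 ± 0.072, adjusted p = 0.0159 in control IgG over DMSO.

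Another group of genes had moved the same way in control IgG cells and moved further with A13. ID4 was higher by 1.16 ± 0.12, adjusted p = 1.24e-06 over control IgG, and control IgG by 1.30 ± 0.12, adjusted p = 1.73e-06 over DMSO. LBH (0.73 ± 0.16, adjusted p = 0.00325 and 1.47 ± 0.16, adjusted p = 7.75e-06), CTH (0.74 ± 0.12, adjusted p = 1.80e-04 and 1.39 ± 0.12, adjusted p = 8.78e-07) and STC2 (0.82 ± 0.11, adjusted p = 6.11e-05 and 1.03 ± 0.11, adjusted p = 9.38e-06) followed the same order, and AQP3 (-1.05 ± 0.10, adjusted p = 1.16e-06 and -1.88 ± 0.10, adjusted p = 8.86e-09) and TFPI2 (-1.46 ± 0.085, adjusted p = 1.75e-09 and -0.88 ± 0.085, adjusted p = 3.64e-06) fell in both steps. NOTCH3 (0.70 ± 0.14, adjusted p = 0.00211 and 0.60 ± 0.14, adjusted p = 0.00327) and HES1 (0.33 ± 0.064, adjusted p = 0.00131 and 0.29 ± 0.064, adjusted p = 0.00219) also rose in both steps, given in the same order.

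For a further set, control IgG differed from DMSO and A13 was not shown to differ from control IgG. CCN1 changed by -0.061 ± 0.077, adjusted p = 0.706 from control IgG and control IgG by 1.14 ± 0.077, adjusted p = 7.12e-08 from DMSO. JUND (-0.013 ± 0.072, adjusted p = 0.95 and 0.83 ± 0.072, adjusted p = 1.42e-06), TRIB3 (0.14 ± 0.068, adjusted p = 0.216 and 1.01 ± 0.068, adjusted p = 7.12e-08), DHCR7 (-0.045 ± 0.070, adjusted p = 0.773 and 0.58 ± 0.070, adjusted p = 1.43e-05), CCNE2 (-0.00010 ± 0.091, adjusted p = 1 and -0.63 ± 0.091, adjusted p = 6.36e-05) and GINS1 (0.038 ± 0.076, adjusted p = 0.834 and -0.62 ± 0.076, adjusted p = 1.86e-05) were alike in form. By the same threshold INSR (-0.024 and 0.52), IGF2R (-0.029 and 0.67), TGFB2 (0.0014 and 0.48), RELB (0.031 and 0.69) and NOTCH2 were alike. A missed threshold does not show equal levels.

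In the last set the steps ran in opposite directions. MUCL1 fell by 1.81 ± 0.079 relative to control IgG, while control IgG was higher than DMSO by 0.72 ± 0.079, adjusted p = 9.17e-06. SCGB2A2 (-2.12 ± 0.15, adjusted p = 1.87e-08 and 0.43 ± 0.15, adjusted p = 0.0362), MUC1 (-0.96 ± 0.075, adjusted p = 7.59e-08 and 0.39 ± 0.075, adjusted p = 7.50e-04) and FOXA1 (-0.90 ± 0.081, adjusted p = 3.29e-07 and 0.42 ± 0.081, adjusted p = 7.51e-04) showed the same opposition, and KRT14 the reverse (1.39 ± 0.069, adjusted p = 2.14e-10 and -0.44 ± 0.069, adjusted p = 1.15e-04). The A13 level of MUCL1, SCGB2A2, MUC1 and FOXA1 was below that of DMSO as well.

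**Figure D5:**
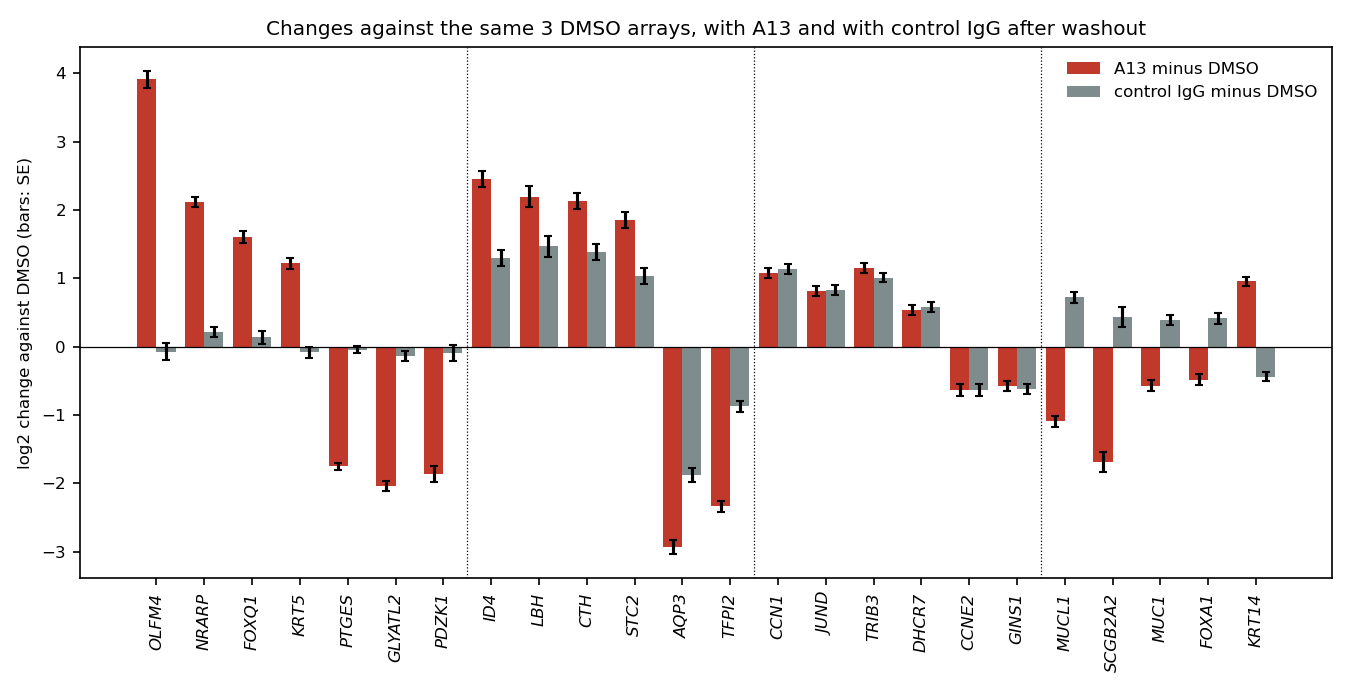
Log2 change against the same 3 DMSO arrays with A13 (red) and with control IgG after washout (grey), with SE bars, for 24 genes picked after their values were seen. Dotted lines part genes whose control IgG change was small beside the A13 change (OLFM4 to PDZK1), genes that moved the same way in both (ID4 to TFPI2), genes with alike changes in both (CCN1 to GINS1) and genes whose control IgG change ran opposite to their A13 change (MUCL1 to KRT14).

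For some of the 32 lists, the same comparisons gave the counts below. Over all genes, 5.71% were higher and 8.96% lower with A13 against control IgG. With control IgG against DMSO, the shares were 17.9% and 12.7%. Shares over genes above the median level, where 465 of the 599 list entries lay, are not given here for these comparisons. ATF4 stress genes numbered 14 higher and 1 lower of 28 with A13 against control IgG, and 27 higher and 0 lower with control IgG against DMSO, with medians of 0.25 and 0.68. The MYC and ribosome genes numbered 19 higher and 0 lower of 23 with A13 against control IgG, and 3 higher and 6 lower with control IgG against DMSO, with medians of 0.41 and -0.025. Luminal transcription factors and keratins numbered 1 higher and 16 lower of 23 with A13 against control IgG, and 13 higher and 0 lower with control IgG against DMSO. Cholesterol and fatty acid genes numbered 1 higher and 4 lower of 18, and 15 higher and 1 lower, in those comparisons. Canonical Notch targets numbered 6 higher and 0 lower of 10, and 4 higher and 0 lower. AP-1 and immediate early genes numbered 6 higher and 3 lower of 22, and 15 higher and 0 lower. MAP kinase feedback genes numbered 4 higher and 6 lower of 18, and 11 higher and 0 lower. Genes of G1/S and DNA replication numbered 2 higher and 0 lower of 31, and 13 higher and 8 lower. Centred on array medians, A13 against control IgG gave 1474 higher and 1379 lower genes, or 1650 and 1697 after repeated quantile normalization. Control IgG against DMSO gave 2584 higher and 3016 lower when centred, so the balance of these 2 comparisons depends on the scaling.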

How the data were processed

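RNA from MDA-MB-468 cells was measured on Affymetrix HG-U133 Plus 2.0 arrays. The authors deposited 1 linear intensity per probe set and array (7.12 to 32597), and RMA and R 2.10 are named, without roles, in the submitters' processing notes. RMA makes array distributions alike, so a shift of most transcripts would be reduced. The deposited intensities were converted to log2 here. Of 54675 probe sets, 62 were controls, 41091 had 1 gene symbol, 1801 several and 11783 none or were controls. For 41037 the gene was matched to the RefSeq table (GRCh38.p14). For each of 19775 genes the single-gene probe set brightest on average over the agonism arrays was kept, and no filter on low values was applied.

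All 18 agonism arrays entered 1 fit in R 4.3.3 with limma 3.58.1 (eBayes after lmFit and contrasts.fit, 12 residual degrees of freedom), without batch or replicate terms, since the labels give none. The Benjamini-Hochberg adjustment ran over all genes with a threshold of 0.05. Adjusted p-values come from limma, each change is a log2 difference ± its standard error, and "rose" or "fell" is used of passing genes. Because the labels do not state separate cultures, p-values measure the spread between these arrays, which may be technical. The number of arrays limits the precision, with a median standard error of 0.081. The fit was tested on simulated data with known changes.

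Named genes were the 12 strongest increases and 12 strongest decreases that passed with no overlap of A13 and DMSO arrays, every canonical Notch target, receptor and ligand, up to 4 passing members with the smallest p of each other list, and MYC, MALAT1 and OLFM4. The 32 lists held 643 genes, of which 596 were measured, and the members and lists were chosen with earlier results of these data known. Alternatives changed the arrays fitted, scaling, variance model, offset, level filter, probe set choice and each array left out. Figures were drawn with matplotlib 3.10.9.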

Additional observations from a re-analysis of the deposited data

How the results depend on the processing

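The number of genes passing in A13 against DMSO, 6114, lay between 4424 and 6594 over all alternatives, and between 4950 (without DMSO array 3) and 6594 (without DMSO array 2) with each array left out. For A13 against control IgG it was 2901, and 2108 to 2597 with each array left out. It fell to 1862 of 17098 genes with _x_at and _s_at probe sets set aside, where fewer genes were tested. For control IgG against DMSO it was 6051, and 4467 to 6689 with each array left out. Of 141 passing named genes, 127 kept their direction and call under every alternative run for them, and the other 14 did not under 1 choice of probe sets each. None of the 141 lost its call when an array was left out. With those probe sets set aside, HES1 changed by -0.11, TNIP1 by -0.017, CXCL2 by -0.098, P4HA1 by 0.012 and AKR1C2 by 0.16, opposite to their reported signs. In these cases another probe set of the gene was read, and which one is right was not tested. Of genes that did not pass, DTX1 ranged between -0.069 and 0.19 with each array left out (-0.027 without A13 array 1, -0.069 without DMSO array 1), and DLL3 changed by -0.012 as a mean over its probe sets. GAS1 (0.034), HEY2 (0.18), NCL (0.071), PAICS (0.13), IFI44 (-0.22) and SC5D (-0.12) kept their sign without passing under the same probe set choice. TGFB2 (0.16), IGFBP5 (-0.12) and PLXNA3 (-0.14) did so as means over probe sets. JAG2 passed with repeated quantile normalization (0.16), with 32 added before log2 (0.16), among genes above the median level (0.18) and without DMSO array 2 (0.22). Of the counts of list members under the alternatives, 432 stayed within 1.5 times the reported count and 16 did not, 12 of them with the same probe sets set aside. Low intensities compress changes, and background was not measured here. No paired analysis was possible because the labels give no replicate numbers.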

Other observations

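Among gene groups not described above, 9 of 13 S100 proteins fell, and the lysosome list had shares close to those over genes above the median level (26.8% higher and 25.4% lower). Of 13 S100 calcium-binding proteins 1 rose (7.69%) and 9 fell (69.2%) with A13 relative to DMSO, with a median of -0.22. S100A13 changed by -1.02 ± 0.062, adjusted p = 1.57e-09, S100P by -0.65 ± 0.090 and the neutrophil-type alarmin S100A8 by -0.49 ± 0.052, and S100A3 rose by 0.59 ± 0.087. Of 18 targets of AHR and NRF2, which respond to foreign compounds and oxidants, 2 rose and 8 fell, with a median of -0.15. The quinone reductase NQO1 changed by -0.56 ± 0.053 and the aldo-keto reductases AKR1B10 and AKR1C2 by -0.71 ± 0.061 and -0.64 ± 0.062, while AHR itself rose by 0.87 ± 0.084, adjusted p = 4.29e-07. Of 26 glycolysis and hypoxia genes 8 rose (30.8%) and 5 fell (19.2%), with a median of 0.010. Hexokinase 2 (HK2) rose by 0.61 ± 0.084 and PFKL, a subunit of phosphofructokinase, by 0.38 ± 0.069, and the mitophagy gene BNIP3 and the collagen hydroxylase P4HA1 changed by -0.47 ± 0.069 and -0.37 ± 0.066. The signs of P4HA1 and AKR1C2 depended on which probe set was read. Of 15 lysosomal genes 4 rose and 4 fell (26.7% each), with a median of -0.007. The membrane glycoprotein GPNMB rose by 0.66 ± 0.078, and LAMP2, NPC2 and HEXA changed by -0.50 ± 0.054, -0.54 ± 0.072 and -0.37 ± 0.058. As means over probe sets, S100A13 changed by -0.48, HK2 by 0.39, AKR1C2 by -0.38, P4HA1 by -0.18 and HEXA by -0.21.

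Among 5 measured long non-coding RNAs 1 rose and 2 fell. MALAT1, an abundant nuclear RNA, had log2 intensities of 10.67, 11.30 and 10.26 with A13, 9.92, 9.93 and 10.36 with control IgG and 12.29, 11.37 and 12.41 with DMSO. Both groups were widely spread, and DMSO array 2 lay just above the highest A13 array, so that they did not overlap. MALAT1 changed by -1.28 ± 0.29, adjusted p = 0.00214 relative to DMSO, and its 11 other probe sets changed by -1.43 to -0.57 and passed as well. Relative to control IgG it changed by 0.67 ± 0.29, adjusted p = 0.147. GAS5, which hosts small nucleolar RNAs, changed by -0.63 ± 0.16, and EPB41L4A-AS1, a long non-coding RNA named as antisense to EPB41L4A, rose by 0.60 ± 0.058, or 0.35 as a mean over its probe sets.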
